A study of Bos taurus with 79 samples.

Results

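Endometrium of cyclic heifers with raised progesterone was compared with endometrium of cyclic heifers with normal progesterone on day 5 of the estrous cycle. The comparison used 10 of the 79 arrays in the series, 5 with high and 5 with normal progesterone, and read the 13292 probe sets with a single gene symbol among the 24016 bovine probe sets tested. These probe sets stood for 9155 genes. All animals were cross-bred beef heifers whose cycles had been synchronized, and cyclic heifers were those not inseminated. The high progesterone group, abbreviated CH in the labels, carried a progesterone-releasing intravaginal device (PRID) from day 3 until slaughter, meant to raise the circulating hormone within the range of 1 ng/ml. The normal group, CN, had no device. No age and no hormone measurement of a single heifer was used here. A further pair of comparisons was set beside it and shared no array with the first: day 5 inseminated heifers found pregnant, with high (PH, 5) and normal (PN, 5) progesterone, and day 7 cyclic heifers with high (4) and normal (5) progesterone.

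Progesterone from the corpus luteum acts on the uterus mainly through the progesterone receptor, a ligand-activated transcription factor in stromal and epithelial cells of the endometrium. During the first week after estrus it shifts the uterus from an estrogen-dominated state towards the secretion of histotroph, the mixture of proteins, lipids and other nutrients on which the embryo depends before it attaches. In cattle an early rise of progesterone is known to go with a longer conceptus later on. The question of the comparison is which endometrial genes have already responded shortly after the device was inserted.

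Values are log2 expression per probe set, so that a difference of 1 is a 2-fold change, and low values are compressed: 32.2% of the probe sets had a mean under 3, referred to as near the floor. Differences are given as CH minus CN with the standard error (SE) of a limma fit over all 79 arrays, and a gene was called changed at a Benjamini-Hochberg adjusted p under 0.05. Nothing in the labels beyond the words for biological replicates describes how the arrays of a group relate. The SE and p-values rest on the spread between arrays within groups, pooled for each probe set over all 79 arrays. They are not the scatter of the CN and CH arrays alone. They understate that scatter for a gene that varied more in CN or CH than in the other groups. In these bulk samples, fewer cells of a type and less RNA per cell cannot be told apart.

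The arrays carried the markers of endometrium. The mean level of 17 epithelial markers lay between 7.69 and 7.98 in the CN arrays and between 7.63 and 7.98 in the CH arrays, and that of 12 stromal fibroblast markers between 9.41 and 9.74 and between 9.42 and 9.69. The epithelial keratin KRT8 was near the floor in both groups, whereas EPCAM, an adhesion protein of epithelia, averaged 12.38 in CN and 12.49 in CH. Smooth muscle markers ranged from 7.61 to 8.96 in CN and from 7.69 to 8.35 in CH, a spread seen within either group. Of 13 endothelial markers 2 were higher in CH and none was called, at a median difference of -0.16. Their mean level lay between 5.514 and 5.675 in CN and between 5.417 and 5.508 in CH. The groups came close without overlapping, while the medians of the 10 arrays ranged from 4.97 to 5.12. In the day 5 pregnant heifers the same mean overlapped, at 5.55 to 5.94 in PN and 5.37 to 5.93 in PH. It was 1 of many list means read, and its difference was not tested. CH replicate 3 stood apart. Its deviations from the group mean had an SD of 0.60, the highest of all 79 arrays, against a median of 0.30, and its mean correlation with the other 9 arrays was 0.957, against 0.976 to 0.984 for those 9.

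CH replicate 3 carried far more leukocyte RNA than the other arrays. The mean of 11 neutrophil markers was 6.13 in this array and between 2.24 and 2.49 in the other 9. S100A8 and S100A9, calcium-binding proteins of neutrophils, were at 14.03 and 11.28 in this array, against CN means of 2.85 and 2.33, whereas the granule genes MPO and ELANE stayed near the floor. For 9 B and plasma cell markers the mean was 8.04, and no other array exceeded 4.13. Markers of T and NK cells averaged 5.12 in this array against 3.05 to 3.66 elsewhere, and those of macrophages and dendritic cells 8.79 against 5.26 to 6.32. LBP, the lipopolysaccharide-binding protein of the acute phase, was at 9.29 in this array and between 2.00 and 2.08 in the other 9. Values without this array stand beside many of the differences and list medians that it moved.

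**Figure D1:**
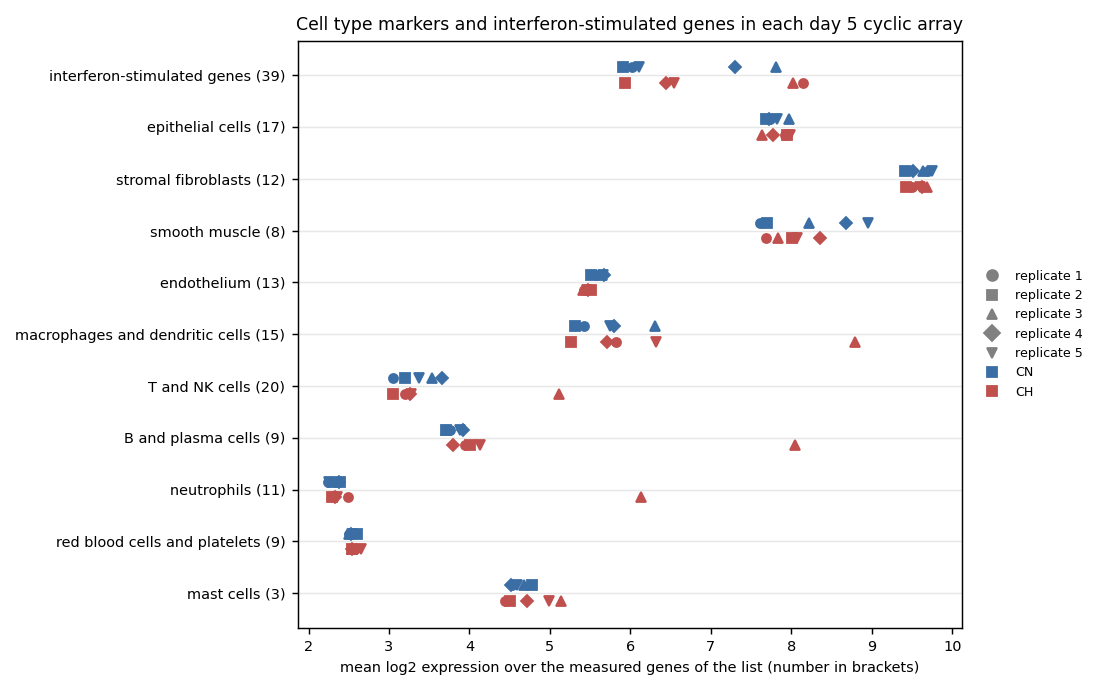
Mean log2 expression (horizontal axis) of the measured genes of each marker list (vertical axis, number of genes in brackets) in the 5 CN arrays (blue) and the 5 CH arrays (red), with replicate numbers as symbols. CH replicate 3 lies to the right of every other array for macrophages, T and NK cells, B and plasma cells and neutrophils, while the epithelial and stromal lists differ little between arrays.

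High progesterone changed few genes on day 5. Of the 24016 probe sets 36 were called (0.15%), 17 higher and 19 lower in CH, and 1890 had an unadjusted p under 0.05, which is 7.87%. Among the probe sets with a single symbol 23 were called (0.173%), 11 higher and 12 lower, and the other 13 called carry no name here. Counted as genes, each represented by its brightest probe set, 10 of 9155 rose (0.109%) and 7 fell (0.0765%). The lower genes were DKK1, TIPARP, FHOD1, JUN, CLN8, THRA and ZFAND5, and the higher genes were DGAT2, CASP1, CXCL2, LY9, MBOAT1, FAS, GRAMD1C, PAXX, ATP13A3 and PLEKHF2. In 94 genes (1.03%) the 5 CH arrays lay all above or all below the 5 CN arrays, 41 above and 53 below, and 9 of the 17 called genes were among them. The median difference over all 9155 genes was 0.0022, and 52.2% of genes were higher in CH.

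**Figure D2:**
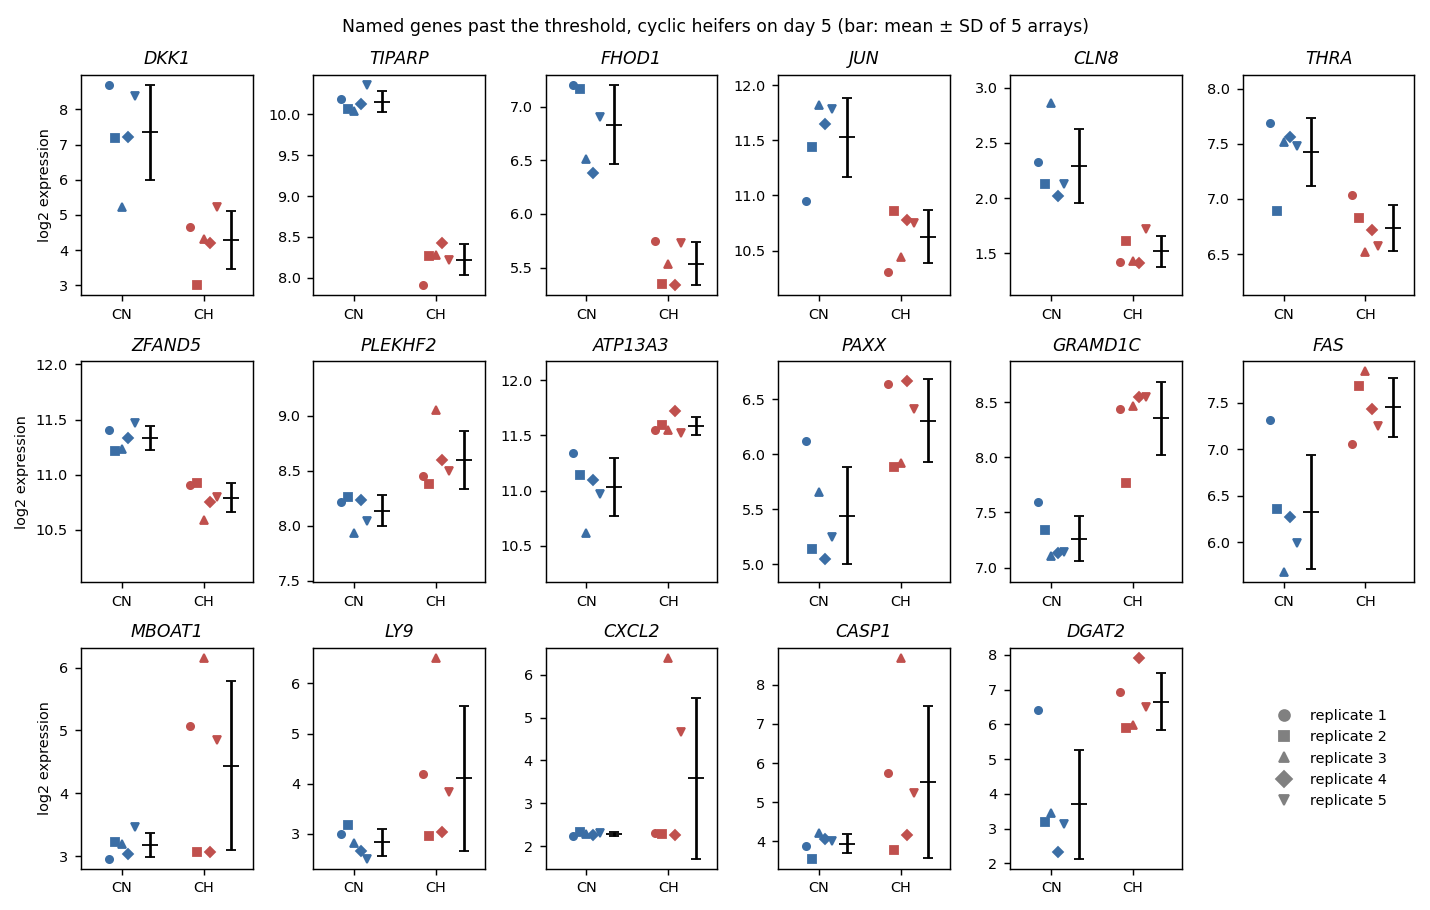
Log2 expression (vertical axis, scaled for each gene) of the 17 called genes in the 5 CN arrays (blue) and the 5 CH arrays (red), with replicate numbers as symbols and black bars for the mean ± SD. TIPARP separates the groups by 1.93 with little spread, whereas CASP1, LY9, MBOAT1 and CXCL2 have their highest value in CH replicate 3, with replicates 1 and 5 or replicate 5 next.

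TIPARP showed the clearest difference. It encodes a poly-ADP-ribose polymerase that is a target and a repressor of the aryl hydrocarbon receptor. Its values were 10.18, 10.06, 10.03, 10.13 and 10.36 in CN replicates 1 to 5 and 7.91, 8.27, 8.28, 8.43 and 8.22 in CH replicates 1 to 5. Every CH array was below every CN array, and the gap between the groups was wider than the whole range within either. The mean fell from 10.15 ± 0.13 to 8.22 ± 0.19 (SD, n = 5 each), a difference of -1.93 ± 0.32 (SE) or 3.82-fold, with an adjusted p of 0.000861. All 3 probe sets of TIPARP were called, the others at -1.94 and -2.09. Of 9 measured aryl hydrocarbon receptor targets TIPARP was the only one called, and their median difference was -0.0011.

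DKK1, a secreted antagonist of Wnt signaling, had the largest difference of any called probe set. It was at 8.70, 7.19, 5.24, 7.22 and 8.37 in the CN arrays and at 4.66, 3.01, 4.31, 4.21 and 5.23 in the CH arrays. The groups came close at CN replicate 3 and CH replicate 5 without overlapping. The difference was -3.06 ± 0.68, or 8.33-fold, with an adjusted p of 0.0315, and the second probe set was called at -3.02. The call was lost on leaving out any of CN replicates 1, 2, 4 and 5 or CH replicates 2 and 3, with differences between -3.58 and -2.72 over all 10 single omissions and adjusted p up to 0.106. No other of 20 measured genes of the Wnt pathway was called, and the median of that list was -0.04.

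JUN, a subunit of the AP-1 transcription factor and an immediate early gene, was at 10.95, 11.44, 11.82, 11.65 and 11.79 in CN and at 10.31, 10.86, 10.45, 10.78 and 10.75 in CH. The lowest CN array, replicate 1, was just above the highest CH array, replicate 2. The difference was -0.90 ± 0.20, or 1.87-fold, with an adjusted p of 0.0253. A second probe set was called at -1.14 and 2 others were at -1.08 and -0.73 without passing, and the remaining probe set was near the floor. Without CN replicates 3, 4 or 5 or CH replicates 1 or 3 the call of JUN was lost, at differences from -1.05 to -0.82 over the 10 omissions. It was the only one called of 22 measured immediate early genes, of which 7 were higher in CH and the median was -0.20.

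FHOD1, a formin that assembles actin filaments, was at 7.20, 7.17, 6.52, 6.38 and 6.90 in CN and at 5.75, 5.34, 5.53, 5.34 and 5.73 in CH. The groups did not overlap. The difference was -1.30 ± 0.23 (2.46-fold) with an adjusted p of 0.0024. ZFAND5, a zinc finger protein that activates the proteasome, lay between 11.22 and 11.47 in CN and between 10.59 and 10.92 in CH. It fell by 0.54 ± 0.10 with an adjusted p of 0.0046, again without overlap, although the mean over its probe sets, one of them near the floor, was not called.

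THRA, the thyroid hormone receptor alpha, was at 7.69, 6.89, 7.51, 7.56 and 7.48 in CN and at 7.04, 6.83, 6.52, 6.72 and 6.58 in CH. CN replicate 2 was the low array of its group and overlapped the CH range. The difference was -0.69 ± 0.16 with an adjusted p of 0.0463, and it lost its call in 7 of 10 single omissions, those of CN replicates 1, 3, 4 and 5 and of CH replicates 3, 4 and 5, with adjusted p up to 0.203. Moderation with a trend and robust options ended the call as well. CLN8, a transmembrane protein of the endoplasmic reticulum, had values of 2.01 to 2.86 in CN and 1.41 to 1.72 in CH. Both groups were near the floor, so its difference of -0.77 ± 0.14 with an adjusted p of 0.0046 describes a signal close to background. That call was lost without CN replicate 3, at -0.63 and an adjusted p of 0.0517.

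DGAT2, which catalyses the last step of triglyceride synthesis, rose most among the called genes. It was at 6.40, 3.19, 3.45, 2.33 and 3.14 in CN and at 6.94, 5.90, 5.97, 7.90 and 6.51 in CH. CN replicate 1 lay within the CH range and the other 4 CN arrays lay at least 2 units below it. The difference was 2.94 ± 0.62, or 7.69-fold, with an adjusted p of 0.0188. Leaving out CN replicate 2, 3, 4 or 5 ended the call, with adjusted p up to 0.133, and over all 10 omissions the difference stayed between 2.60 and 3.62. DGAT2 was the only one called of 31 measured genes of fatty acid and triglyceride metabolism, of which 21 were higher in CH with a median of 0.15.

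GRAMD1C belongs to a family of proteins that move cholesterol from the plasma membrane to the endoplasmic reticulum. Its values were 7.59, 7.34, 7.10, 7.13 and 7.14 in CN and 8.44, 7.77, 8.47, 8.55 and 8.55 in CH. All CH arrays were above all CN arrays, with CH replicate 2 the nearest to them. The difference was 1.09 ± 0.22 with an adjusted p of 0.0095. ATP13A3, a P-type ATPase that transports polyamines, was at 11.34, 11.14, 10.62, 11.09 and 10.97 in CN and at 11.55, 11.59, 11.55, 11.73 and 11.52 in CH. The groups did not overlap, the difference was 0.56 ± 0.12 with an adjusted p of 0.0188, and the call was lost without CN replicate 3 or CN replicate 5 (adjusted p up to 0.149).

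FAS, the death receptor of the TNF receptor family, was at 7.32, 6.36, 5.68, 6.28 and 5.99 in CN and at 7.06, 7.68, 7.84, 7.43 and 7.25 in CH. Only CN replicate 1 reached into the CH range. The difference was 1.13 ± 0.24 with an adjusted p of 0.0188. FAS lost its call without CN replicates 3, 4 or 5 or CH replicate 3, and its difference was 1.03 without the last of these. PAXX, a factor of DNA double-strand break repair, ranged from 5.05 to 6.12 in CN and from 5.89 to 6.67 in CH, with overlap, and differed by 0.86 ± 0.19 with an adjusted p of 0.0253. Its call was lost without CN replicates 2, 4 or 5 or CH replicates 1, 4 or 5 (adjusted p up to 0.173). PLEKHF2, an endosomal protein, ranged from 7.93 to 8.26 in CN and from 8.38 to 9.05 in CH. Its difference of 0.46 ± 0.11 with an adjusted p of 0.0436 was not called after quantile normalization or median centring of the arrays, in the mean over its probe sets, or without CN replicates 2 to 5, CH replicate 3 or CH replicate 5. Without CH replicate 3 it was 0.35.

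The other 4 called genes lost their calls without CH replicate 3, the array rich in leukocyte markers. CASP1, the protease that activates interleukin-1 beta, was between 3.56 and 4.21 in CN and at 5.74, 3.79, 8.68, 4.15 and 5.22 in CH. Replicates 2 and 4 of CH were at the CN level. LY9, a SLAM family receptor of lymphocytes, was between 2.50 and 3.16 in CN and at 4.19, 2.96, 6.50, 3.04 and 3.83 in CH. MBOAT1, an acyltransferase of phospholipid remodelling, was between 2.96 and 3.46 in CN and at 5.07, 3.06, 6.15, 3.06 and 4.85 in CH. CXCL2, a neutrophil-attracting chemokine, lay between 2.23 and 2.34 in CN and at 2.31, 2.29, 6.38, 2.27 and 4.65 in CH. In each of the 4, replicate 3 was the highest array and CH overlapped CN.

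The differences of these genes were 1.57 ± 0.36 for CASP1, 1.28 ± 0.29 for LY9, 1.26 ± 0.29 for MBOAT1 and 1.29 ± 0.30 for CXCL2, with adjusted p of 0.0425, 0.0389, 0.0346 and 0.0436. Without CH replicate 3 they were 0.78, 0.68, 0.84 and 0.59, with adjusted p of 0.487, 0.489, 0.445 and 0.444, and none was called. They also lost their calls on leaving out CH replicate 5, and without CN replicates 3, 4 or 5. The calls of CASP1, LY9 and MBOAT1 were lost without CH replicate 1, and those of CASP1, MBOAT1 and CXCL2 without CN replicate 1 or 2. A second probe set of MBOAT1 (0.85) and of LY9 (0.11) was near the floor and not called. MBOAT1 was also not called in the mean over its probe sets. The part of leukocyte content in the differences of these genes was not tested beyond the omission of CH replicate 3.

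The calls as a set depended on single arrays and on the groups that entered the fit. Of the 17 called genes 4 kept their calls in all 10 single omissions, namely TIPARP, FHOD1, ZFAND5 and GRAMD1C. The number of called probe sets, 36 with all arrays, was 21 without CN replicate 3, 18 without CN replicate 4, 16 without CN replicate 5 and 21 without CH replicate 3. It was 87 without CH replicate 2 and 85 without CH replicate 4. Without the 4 arrays with the highest interferon-stimulated gene levels, which are described below, 5 probe sets were called, among them FHOD1. In that setting TIPARP (-1.90, adjusted p = 0.0841), ZFAND5 (-0.54, adjusted p = 0.165) and GRAMD1C (0.93, adjusted p = 0.429) were not called. A fit of the 2 groups alone called 1 probe set, of TIPARP, and a fit of the 20 day 5 arrays called 10.

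**Figure D3:**
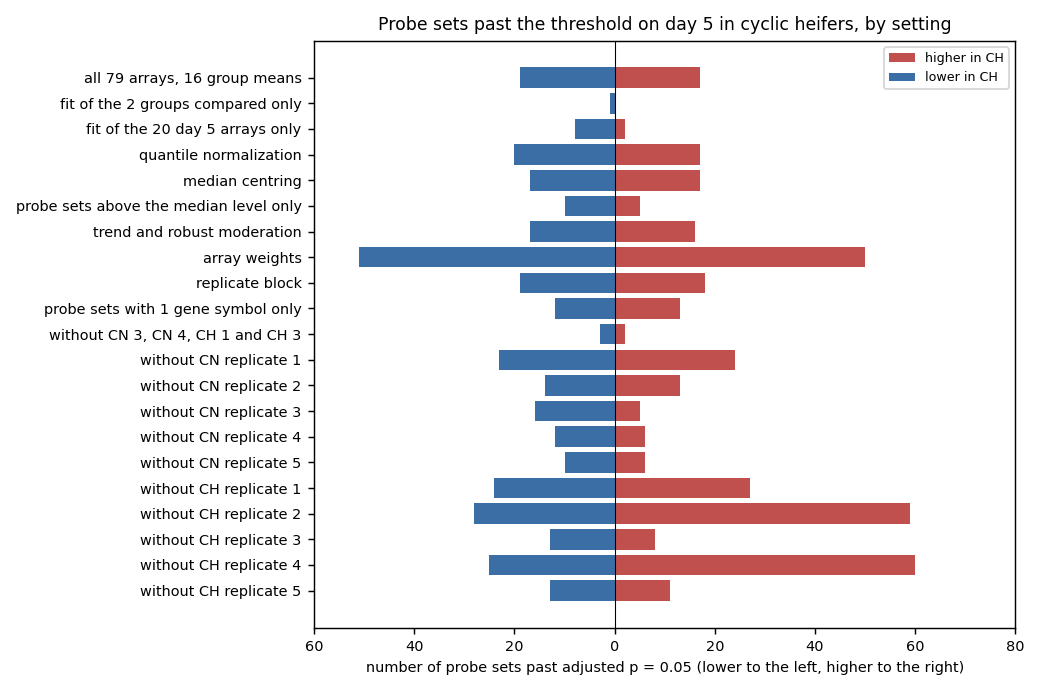
Number of probe sets past an adjusted p of 0.05 in the day 5 cyclic comparison (horizontal axis; higher in CH to the right in red, lower to the left in blue) under each setting of the analysis (vertical axis). The count was 36 with all 79 arrays, 1 in the fit of the 2 groups alone and 101 with array weights, and the removal of CH replicate 2 or 4 raised it to 87 or 85.

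Most other progesterone-response genes were not called. Of 50 measured genes in a list of histotroph and progesterone-response genes DGAT2 rose and DKK1 and TIPARP fell. Among all genes 0.109% rose and 0.0765% fell. The list was chosen with earlier results of these data known, so these calls are no result about such genes as a set. In the list 37 genes were higher in CH, against 52.2% of all genes. The median was 0.23, which was 0.06 without CH replicate 3. An unadjusted p under 0.05 was found for 10 of the 50 and for 8.79% of all 9155 genes. MSTN, the growth inhibitor myostatin, was at 2.82, 5.39, 6.08, 4.34 and 7.33 in CN and at 8.11, 7.62, 5.93, 6.50 and 8.97 in CH. The groups overlapped, and the difference of 2.23 ± 0.74 did not pass (adjusted p = 0.302). The peptidase gene ANPEP (0.48, adjusted p = 1.0), the meprin gene MEP1B (0.02), the morphogen gene IHH (-0.22) and the lactoferrin gene LTF (0.60) were not called, and the last pair were at -0.05 and 0.20 without CH replicate 3. HAND2, a stromal target of progesterone, was not measured through a probe set with a single symbol.

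The receptors of the steroid hormones were not called. PGR, the progesterone receptor, had values of 2.66 to 4.21 in CN and 2.45 to 4.34 in CH, a difference of -0.07 ± 0.30, and ESR1, the estrogen receptor alpha, was near the floor in both groups with a difference of -0.26 ± 0.21. Each was read from 1 probe set at low values, so the lack of a call says little about these receptors. None of 22 measured steroid receptors and partners passed, 5 of them were higher in CH, and the median was -0.14. FKBP4, the cochaperone that the progesterone receptor needs for its activity, was at 8.81, 9.37, 9.54, 9.25 and 9.37 in CN and at 9.46, 8.83, 8.37, 8.68 and 8.67 in CH. Replicate 1 was the lowest in CN and the highest in CH, and the difference of -0.47 ± 0.20 did not pass (adjusted p = 0.51). The chaperone gene HSP90AB1 differed by -0.21 ± 0.11. OXTR, the oxytocin receptor, ranged from 5.05 to 8.30 in CN and from 5.72 to 8.39 in CH, with a difference of -0.12 ± 0.82. Of 19 measured genes of the prostaglandin and oxytocin pathway none was called by its brightest probe set. Among them PTGS2, the inducible prostaglandin synthase, was at 1.16 ± 0.59 and the receptor gene PTGER4 at 0.72 ± 0.31. These were 0.68 and 0.50 without CH replicate 3. AKR1C4, also on that list, was at 2.01 by its brightest probe set. Of its 6 probe sets 1 was called, at 2.67, as described further below.

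Interferon-stimulated genes varied widely between animals within both groups. The mean level of 39 measured members was 6.02, 5.91, 7.81, 7.30 and 6.11 in CN replicates 1 to 5 and 8.14, 5.94, 8.02, 6.44 and 6.54 in CH. CN replicates 3 and 4 and CH replicates 1 and 3 were high, so the groups overlapped. ISG15, a ubiquitin-like modifier, showed the range, from 4.97 to 10.90 in CN and from 5.20 to 11.88 in CH, and its difference was 0.66 ± 1.09. The antiviral GTPase genes MX1 and MX2 differed by 0.07 ± 0.84 and 0.47 ± 0.99. Without CH replicate 3 ISG15 was at 0.34 and MX2 at -0.23. None of the 39 genes was called, 37 were higher in CH, and the median of 0.30 was 0.08 without CH replicate 3. TRIM21 (1.06 ± 0.37, adjusted p = 0.336) and OASL (0.22 ± 0.08) had the lowest unadjusted p in the list. OASL was at 2.95 in CH replicate 3 and at most 1.91 in the other 9 arrays, and its difference without that array was 0.0029.

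The immune gene lists were high in CH replicate 3. The median difference was 0.56 over 20 genes of antigen processing and 0.09 without that array, 0.31 over 29 genes of complement and the acute phase and 0.0064 without it, and 0.20 over 37 chemokines and cytokines, with CXCL2 called, and -0.0047 without it. All 15 macrophage and dendritic cell markers were higher in CH with none called, at a median of 0.67 that was 0.05 without the array. PSMB9, an immunoproteasome subunit, was between 8.49 and 8.68 in CN and at 9.0, 8.42, 11.45, 8.70 and 9.43 in CH, which gave 0.86 ± 0.30 (adjusted p = 0.34). BOLA-DMB, which loads peptides onto class II molecules, differed by 0.87 ± 0.38, the complement factor gene CFP by 0.90 ± 0.29 and LBP by 1.45 ± 0.51, none of them called. Without CH replicate 3 the differences of PSMB9, BOLA-DMB, CFP and LBP were 0.34, 0.17, 0.26 and 0.0047.

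The remaining lists held no called gene. In the extracellular matrix list (40 genes, median 0.01) OGN and ASPN, small leucine-rich proteins, were at -1.30 ± 0.44 and -0.89 ± 0.41. Among 32 matrix proteases and inhibitors the cathepsin genes CTSZ and CTSS differed by 0.53 ± 0.24 and 0.49 ± 0.24, and by 0.25 and 0.10 without CH replicate 3. IGF1 (-1.10 ± 0.39) and the growth hormone receptor gene GHR (-0.77 ± 0.44) had the lowest p among 16 genes of the IGF system, whose median was -0.05. The 27 genes of the TGF-beta, activin and BMP system had a median of 0.06, with MSTN and ID2 (0.56 ± 0.20) leading. Of 22 growth factor genes the EGF receptor ligand AREG came closest to the threshold, at 2.67, 4.80, 2.27, 2.63 and 2.75 in CN and at 4.55, 5.21, 4.32, 5.03 and 5.20 in CH. CN replicate 2 was within the CH range and the other CN arrays were below it, and the difference of 1.84 ± 0.44 had an adjusted p of 0.0534. Without CN replicate 2 AREG passed, at 2.28 with an adjusted p of 0.0061. It also passed with the replicate number as a block (adjusted p = 0.0352), with array weights (adjusted p = 0.0098) and when the adjustment covered probe sets with 1 symbol only (adjusted p = 0.0458). FLT1, a VEGF receptor, differed by -0.35 ± 0.18, and by -0.20 without CH replicate 3.

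Metabolic and transport genes likewise did not pass. The 19 genes of cholesterol synthesis and uptake had a median of 0.15, with PMVK of the mevalonate pathway at -0.52 ± 0.33 and the lipogenic transcription factor gene SREBF1 at 0.38 ± 0.23. Solute transporters (29 genes, median 0.17, and 0.014 without CH replicate 3) were led by SLC6A14 (0.97 ± 0.33) and SLC7A7 (0.78 ± 0.30), both amino acid carriers, and these were 0.33 and 0.49 without that array. Ion channels (24 genes, median 0.07, and 0.03 without it) were led by the sodium channel subunit SCNN1G, at 0.47 ± 0.17 and 0.03 without CH replicate 3, and by the chloride channel CFTR at 0.40 ± 0.16. A dimmer probe set of CFTR was at 1.52 ± 0.46 without passing, and was highest in CH replicate 3, at 7.49. The redox list (31 genes) had a median of 0.15, which was 0.05 without CH replicate 3, and was led by the glutathione reductase gene GSR (0.88 ± 0.24) and MGST1 (0.68 ± 0.26). GSR was at 0.59 without that array. The heat shock and unfolded protein response list (30 genes) had a median of -0.0055, which was 0.0020 after quantile normalization, with TRIB3 at 0.45 ± 0.18 and SDF2L1 at 0.48 ± 0.23. Without CH replicate 3 TRIB3 was at 0.09 and SDF2L1 at 0.29. Hypoxia and glycolysis (24 genes, median -0.03) included VEGFA at -0.45 ± 0.27 and HK1 at 0.25 ± 0.14, and the respiratory chain (35 genes, median 0.05) NDUFB1 at 0.30 ± 0.14 and NDUFA5 at -0.18 ± 0.11. Among 18 developmental transcription factors, with a median of -0.04, HOXA10 was at -0.56 ± 0.27 and SOX4 at -0.46 ± 0.33. The omission of CH replicate 3 also moved the medians of the steroid receptor list to -0.09, the immediate early genes to -0.30, the TGF-beta list to 0.10, the respiratory chain to 0.11 and the developmental factors to -0.07.

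Several further genes came near the threshold. CD47, an inhibitory ligand for phagocytes, differed by 0.77 ± 0.18 with an adjusted p of 0.054, and by 0.44 without CH replicate 3. Among genes lower in CH, the clock gene PER2 was between 7.53 and 8.85 in CN and between 6.56 and 7.85 in CH, at -1.15 ± 0.30 (adjusted p = 0.101), and its second probe set was at -1.16. RNPC3 of the minor spliceosome (-0.85 ± 0.22), the nucleotidase gene NT5C3B (-0.81 ± 0.20), DMTF1 (-0.67 ± 0.18) and the peptidase gene PREP (-0.64 ± 0.17) had adjusted p between 0.091 and 0.104. The other probe sets of NT5C3B were at -0.73 and -0.85, but the second of DMTF1 was only at -0.26 ± 0.16, with overlap. AKR1C4 and AFF1 were called by a probe set that was not their brightest, and were singled out after their values were seen. For AKR1C4, annotated as an aldo-keto reductase, 1 of 6 probe sets was called at 2.67 ± 0.52 (adjusted p = 0.0067), whereas the brightest was at 2.01 ± 0.73 (adjusted p = 0.345). The called probe set lay between 2.39 and 3.30 in CN and at 6.54, 6.84, 2.38, 2.38 and 8.27 in CH. In pregnant heifers it differed by 3.67 in the limma fit (adjusted p = 1.6e-05). Aldo-keto reductase genes are closely alike in sequence, so which member these probe sets measured is uncertain. AFF1 was called at -1.01 ± 0.23 by 1 of 2 probe sets, and its brightest was at -0.77 ± 0.54.

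The day 5 pregnant heifers gave a separate set of arrays for the same hormone and day. There 13 of 9155 genes were called (0.142%), and 3 of them were also among the 17 of the cyclic heifers, namely FHOD1 (-1.07, adjusted p = 0.0195), CLN8 (-1.17, adjusted p = 5.9e-07) and DGAT2 (2.87, adjusted p = 0.021). That is 3 of 17 genes called in cyclic and 3 of 13 called in pregnant heifers. Both comparisons used the same spread per probe set from the joint fit. A call or a low p-value in both is therefore not fully independent support. Of the 17 genes 16 had the same sign in pregnant heifers, where 61.8% of all genes agreed in sign, and 11 had the same sign with an unadjusted p under 0.05, a threshold that 8.25% of all genes passed in pregnant heifers in either direction. In 16 of the 17 the difference was smaller in the pregnant heifers, CLN8 being the exception. The 17 were chosen by their size in cyclic heifers, so a smaller difference in other arrays is no result about pregnancy.

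TIPARP averaged 9.63 ± 0.30 in PN and 8.49 ± 0.33 in PH (SD, n = 5 each), with PN from 9.39 to 10.13 and PH from 8.02 to 8.86. The pregnant groups did not overlap, although the difference of -1.14 was not called (adjusted p = 0.124). DKK1 was at 7.03 ± 0.59 in PN and 5.76 ± 0.50 in PH, a difference of -1.27 (adjusted p = 0.783). DGAT2 was between 2.45 and 3.90 in PN and between 4.89 and 7.09 in PH, without overlap. MSTN was called in pregnant heifers, at 3.28 with an adjusted p of 0.0348, and had the same sign in cyclic ones. CASP1, CXCL2, LY9 and MBOAT1 differed by 0.76, 0.01, 0.47 and 0.15 in pregnant heifers and were not called.

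No probe set passed the test of a different progesterone effect in cyclic and pregnant heifers. The limma fit called 0 of 24016, with 686 at an unadjusted p under 0.05, and 1 was called with array weights. The lowest unadjusted p among named genes belonged to MDFI, CHD1L, SLC26A11, MTMR11 and THRA, with an adjusted p of 1.0 each. THRA was at 7.23 ± 0.25 in PN and 7.34 ± 0.21 in PH, and its difference between the effects was -0.80 ± 0.23. For CHD1L, SLC26A11 and MTMR11 that difference was -0.80, -0.70 and -0.89, and for MDFI, whose values were near the floor apart from CN replicates 4 and 5, it was -0.64. This count of 0 does not show that the effects were alike: for DKK1 the difference between them was -1.78 ± 0.96 and for TIPARP -0.79 ± 0.45.

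**Figure D4:**
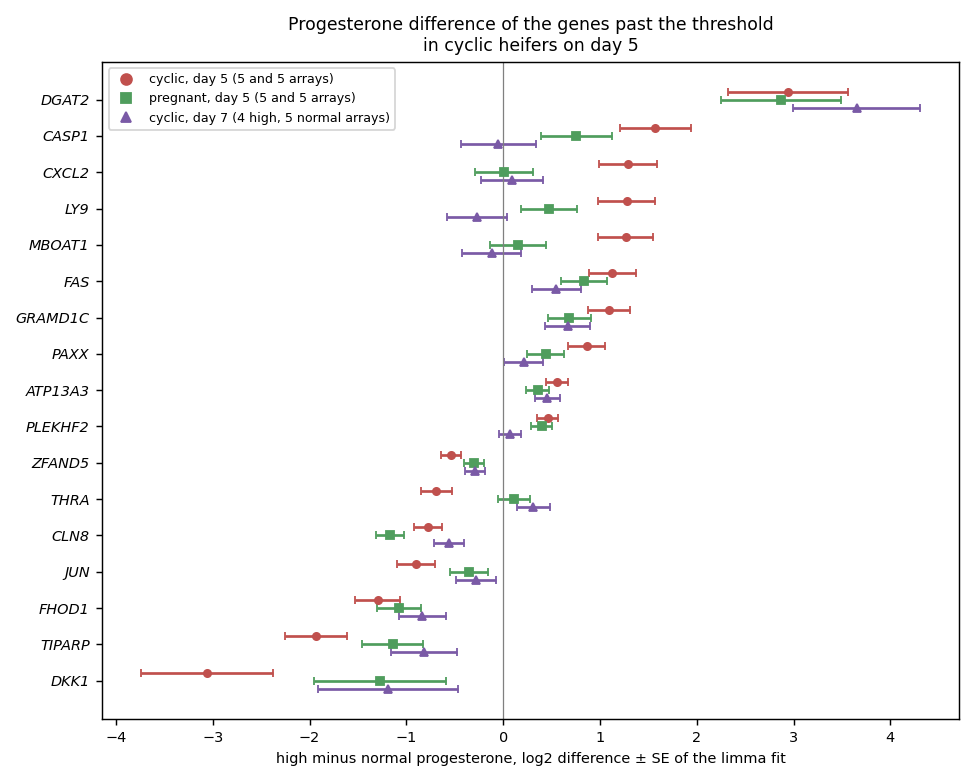
Log2 difference between high and normal progesterone ± SE of the limma fit (horizontal axis) of the 17 genes called in cyclic heifers on day 5 (vertical axis), in cyclic heifers on day 5 (red circles), pregnant heifers on day 5 (green squares) and cyclic heifers on day 7 (purple triangles). DGAT2, FHOD1 and CLN8 keep their sign and are called in all 3 settings, while CXCL2 and MBOAT1 are near 0 in the other settings.

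On day 7, in other cyclic heifers, high progesterone was associated with many more calls: 432 of 9155 genes (4.72%), 158 higher and 274 lower. Of all probe sets 471 rose and 437 fell there, and 932 rose and 411 fell after quantile normalization. Of the 17 genes of day 5, 4 were called on day 7, namely DGAT2 (3.65), FHOD1 (-0.83), CLN8 (-0.56) and ATP13A3 (0.46), all with the same sign as on day 5. The same sign was seen in 13 of the 17, against 53.3% of all genes. TIPARP differed by -0.82 (adjusted p = 0.106) and DKK1 by -1.19 (adjusted p = 0.274) on day 7. DGAT2 averaged 5.71 ± 1.69 in the 5 normal and 9.36 ± 0.48 in the 4 high arrays of day 7 (SD), and 3.70 ± 1.57 and 6.64 ± 0.82 in CN and CH on day 5. The day 7 minus day 5 difference at normal progesterone was 2.01 for DGAT2, -0.33 for TIPARP and -0.60 for DKK1, none of them called. That last comparison shares the CN arrays of day 5 with the main one.

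A list of cell division genes was read on both days. Of 43 measured genes of the cell cycle and DNA replication none was called on day 5, where 0.109% of all genes rose and 0.0765% fell. On that day 36 of the 43 were higher in CH and the median was 0.22. The lowest p belonged to the cyclin gene CCNE1 (0.40 ± 0.10) and the replication licensing gene CDC6 (0.83 ± 0.23). In the day 5 pregnant heifers 20 of the 43 were higher with high progesterone, at a median of -0.03. On day 7 in cyclic heifers, where 4.72% of all genes were called, 20 of the 43 fell, none rose, and the median was -0.97. After median centring 18 fell at a median of -0.90. The list mean on day 5 was 6.23, 6.47, 6.18, 6.04 and 6.60 in CN and 6.97, 6.03, 6.60, 6.0 and 7.06 in CH, with replicates 1 and 5 highest. The difference between the day 5 and day 7 effects was called for 8 of 9155 genes (0.0874%) and for none of the 43 on the list, of which 1 was called after quantile normalization.

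Of these 8 genes 6 had a positive difference on day 5 and fell on day 7. LMNB1, a lamin of the nuclear envelope, was at 7.20, 6.98, 7.07, 7.19 and 7.71 in CN and at 8.54, 7.42, 8.25, 7.03 and 8.20 in CH, with CH replicates 2 and 4 in the CN range. It differed by 0.66 on day 5 and by -1.43 on day 7, which gave a difference of 2.09 ± 0.39 between the days (adjusted p = 0.0127). EZH2, a histone methyltransferase, was at 1.13 on day 5 and -1.42 on day 7, a difference of 2.55 ± 0.51. KIF22, a chromosome-binding kinesin, and NCAPG, a condensin subunit, differed between the days by 1.81 ± 0.37 and 2.97 ± 0.61. The replication factors RFC4 and PCLAF, not among the genes the naming rule selects, differed by 1.36 and 3.72. None of these 6 was called on day 5 alone. In the day 5 pregnant heifers their differences lay between -0.19 (EZH2) and 0.15 (KIF22).

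The other two of the 8 genes, HAVCR1 and ANKRD13D, were near the floor in both groups on day 5. HAVCR1, a phosphatidylserine receptor, was between 2.06 and 2.12 in CN and between 2.07 and 2.11 in CH. It averaged 2.23 and 4.81 in the normal and high groups of day 7, so its difference between the days was -2.57 ± 0.53. ANKRD13D averaged 2.18 and 2.98 in those day 7 groups, and so was near the floor on both days. The calls for a difference between the days depended on single day 5 arrays. Of 12 probe sets called for the difference between the days 7 had the higher difference on day 5 and 5 on day 7, and quantile normalization gave 13 and 19. The count was 0 without CH replicate 1, 1 without CH replicate 5 and 3 without CH replicate 3. It was 5 without CN replicate 4, 7 without CN replicate 1, 19 without CN replicate 2, 21 without CN replicate 5, 31 without CH replicate 2 and 72 without CH replicate 4.

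**Figure D5:**
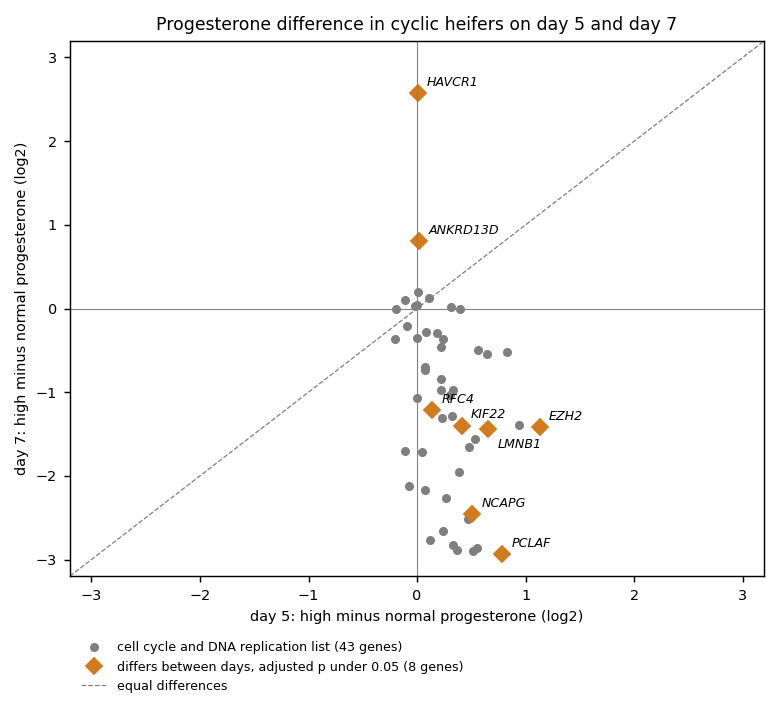
Log2 difference between high and normal progesterone in cyclic heifers on day 5 (horizontal axis) and on day 7 (vertical axis), for the 43 measured genes of the cell cycle and DNA replication list (grey circles) and the 8 genes whose difference changed between the days (orange diamonds), with a dashed line of equal differences. Most of the list lies at or slightly above 0 on day 5 and below 0 on day 7, with medians of 0.22 and -0.97, and HAVCR1 and ANKRD13D lie at 0 on day 5 and above it on day 7.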

How the data were processed

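The deposited values were log2 expression per probe set, made by the authors from Affymetrix bovine arrays. The tools named in the submitters' processing notes are GCRMA, RMA and limma. No versions are given, and which of RMA and GCRMA made these values is not given in the sources used here. Per the labels, RNA came from 300 mg strips of endometrium, with 2 µg labelled for each array. No further normalization or filter on level was applied, and 112 control probe sets were left out. Symbols came from the platform annotation, whose gene identifiers were found in a current RefSeq table for 13263 probe sets, with 0 symbols changed; 86 probe sets with several symbols and 10638 unnamed ones entered the fit without a name. A gene was read from its probe set of highest mean over 79 arrays.

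The means of 16 groups were fitted over all 79 arrays with limma 3.58.1 in R 4.3.3 (63 residual degrees of freedom, empirical Bayes without trend), adjusting over 24016 probe sets. The script was tested on simulated data. Python 3.11.15, pandas 2.3.3 and matplotlib 3.10.9 made the tables and plots. Array medians lay between 4.97 and 5.12, and the number of arrays limits the precision. The members and lists were chosen with earlier results of these data known. Genes named are those called (up to 12 in each direction, filled up by lowest p), list members called or the 2 of lowest p, a fixed set of progesterone and interferon genes, and the 5 of lowest p for each difference between effects. Arrays sharing a replicate number were not treated as pairs. Alternatives varied the samples fitted, normalization, level filter, moderation, array weights, replicate block and probe set choice. Those for day 7 were chosen after seeing the data.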

Additional observations from a re-analysis of the deposited data

Results flagged for a closer look

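Among 186 groups of 5 arrays tested for an array far from the rest (164 of single genes, the others of list means), 16 had one, and chance alone gives about 1 in 20. CH replicate 3 was that array in 8 of them. It lay above the other CH arrays for LBP (9.29), SLC6A14 (7.46), SCNN1G (4.98), TRIB3 (4.16) and OASL (2.95), and for the mean level of markers of T and NK cells (5.12), B and plasma cells (8.04) and neutrophils (6.13). The other 8 were single genes. CN replicate 2 was low for THRA (6.89) and high for AREG (4.80), and CN replicate 1 was high for DGAT2 (6.40) and CHD1L (7.89). CN replicate 5 was high for PSMB9 (8.68). In CH, replicate 2 was low for GRAMD1C (7.77), replicate 4 was low for CFTR (9.07) and replicate 5 was high for MDFI (2.34), where all CH values were near the floor.

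The progesterone difference changed from day 5 to day 7 in cyclic heifers, by the limma test of the difference itself, for LMNB1 (2.09), EZH2 (2.55), KIF22 (1.81), NCAPG (2.97) and HAVCR1 (-2.57), each given as the day 5 minus the day 7 difference on the log2 scale.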

How the results depend on the processing

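The number of probe sets called in cyclic heifers on day 5 was 36. It was 1 in the fit of the 2 groups alone, 10 in the fit of the 20 day 5 arrays, 15 for probe sets above the median level, 101 with array weights and 5 without CN replicates 3 and 4 and CH replicates 1 and 3, and single omissions gave 16 to 87. Quantile normalization, median centring and trend moderation gave 37, 34 and 33. With the replicate number as a block it was 37, of which 33 were shared with the 36, and among the 17 called genes the block ended the call of CXCL2. It put AREG past the threshold at an adjusted p of 0.0352. Deviations of CN and CH arrays with the same number correlated at 0.02, 0.12, 0.10, 0.19 and 0.20 for replicates 1 to 5. No such correlation was computed for arrays of unlike number, so these values cannot decide whether arrays were paired. In pregnant heifers the count of 36 became 2, 11, 8 and 267 in the first 4 of these settings, and 34 to 41 on single omissions of cyclic arrays. The difference between cyclic and pregnant effects had 0 calls, and 1 with array weights. On day 7 the count of 908 (471 higher, 437 lower) was 596 after median centring, 536 above the median level and 267 with array weights, and quantile normalization gave 932 higher and 411 lower. Single omissions of day 5 arrays gave 821 to 923. For the difference between days, 12 calls became 32 after quantile normalization, 23 after median centring, 1 above the median level, 53 with array weights, 82 with the replicate block and 0 without the 4 arrays, with 0 to 72 on single omissions. The cause was not tested in any of these, beyond the smaller number of arrays or probe sets that a setting implies.

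For the 17 called genes, 222 of 352 alternatives kept the call, 130 lost it and 0 reversed the sign. Of 65 named genes that were not called, 15 changed sign in 40 of 1346 alternatives, and 30 alternatives put one past the threshold. Without the 4 arrays the differences were 0.67 for PGR, 0.39 for ESR1, -0.14 for LTF, 0.018 for IHH, -0.0051 for LBP, 0.11 for IGF1, -0.00090 for OASL, 0.023 for NDUFA5, 0.27 for SOX4 and 0.20 for MTMR11. With array weights they were 0.30 for PGR, -0.81 for ISG15, -0.60 for MX1 and -0.52 for MX2, and the mean of all probe sets gave -0.075 for LTF. On single omissions the differences ranged from -0.30 to 0.17 for PGR, from -0.58 to 0.24 for OXTR, from -0.10 to 0.13 for MEP1B, from -0.24 to 1.48 for ISG15, from -0.63 to 0.69 for MX1, from -0.23 to 0.84 for MX2 and from -0.13 to 0.14 for MTMR11.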
